A study of Homo sapiens with 7 samples.

Results

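The transcripts of PTK7 and of 9 core planar cell polarity genes (VANGL1, VANGL2, CELSR1, CELSR2, CELSR3, PRICKLE1, PRICKLE2, SCRIB and DAAM1) were followed in HT1080, a fibrosarcoma line, and in 6 of its derivatives. The members were given by name, and every probe annotated with one of these symbols was taken, which gave 15 probes for 10 genes out of 30112 probes with 1 gene and 20045 genes. RNA was measured on Illumina HumanHT-12 v4 BeadChips, whose oligonucleotide probes sit on beads. The 7 arrays shared 1 chip. Each line had a single array, so there is no replicate and no test, and each fold describes a pair of arrays.

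HT1080 is an invasive human fibrosarcoma line, and all 7 cultures derive from it. In shPTK7 cells PTK7 was silenced by shRNA, and 3 silenced clones had been pooled to make them. PTK7 cells were stably transfected with the full-length pseudokinase with a FLAG tag, and sPTK7 cells with its soluble N-terminal ectodomain, also FLAG-tagged. Chz cells expressed full-length PTK7 with the Chuzhoi mutation, which creates an additional cleavage site for the membrane protease MT1-MMP. cPTK7/622-1070 cells expressed the C-terminal fragment that MT1-MMP leaves in the membrane, and cPTK7/726-1070 cells the shorter C-terminal fragment that γ-secretase releases, both with V5-HIS tags and named by their first and last residues. The HT1080 array, set against every line, is called parental in the methods and scrambled control in the labels. Cells grew for 72 h to subconfluence before RNA extraction.

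Planar cell polarity is the alignment of cells within the plane of a tissue. In it Frizzled receptors recruit Dishevelled, and Van Gogh (VANGL) and Prickle proteins occupy the opposite side of the cell. The Flamingo cadherins (CELSR) bridge neighboring cells. PTK7 is a membrane pseudokinase with immunoglobulin-like domains that acts in this pathway and in Wnt signaling, and Ptk7 and Vangl2 interact genetically in the mouse. Downstream, DAAM1 links Dishevelled to RhoA and actin, and the pathway directs convergent extension of the embryo and the directed migration of cells.

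VANGL2 was the only member called as at least 2-fold different from HT1080 cells, by its brightest probe. It was not detected in PTK7 and sPTK7 cells and was detected in the other 4 lines and in HT1080 cells. The brighter PTK7 probe was detected in PTK7, Chz and HT1080 cells. It was not detected in shPTK7 cells, sPTK7 cells or either C-terminal fragment line. Whether it reads the transfected constructs is not known, so lines with a construct may hold PTK7 transcripts that it misses. The probe was not called against HT1080 cells in any line, though in the 4 undetected lines only a lower bound under 2-fold can be given. The call required a difference of 2-fold or more and detection on the brighter array, detection being a detection p under 0.05 (the share of the negative control probes of an array that are at least as bright). Signals are printed as deposited, before normalization. Folds come from background-corrected and normalized levels, so a fold is not the ratio of the printed signals. Undetected signals were set to the lowest detected signal of their array where they lay under it. Where the dimmer array was undetected, the fold is thus a lower bound, written "at least".

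Because the levels of PTK7 and VANGL2 carried these patterns, the RefSeq promoters of both genes are shown. Each window runs from 250 bases before to 50 bases after the start site on GRCh38.p14, 5′ to 3′, with GC boxes (GGGCGG on either strand) in capitals. RefSeq lists 2 start sites for PTK7, and the upstream one is printed, at chr6:43076064-43076363 on the plus strand. The VANGL2 window lies at chr1:160400314-160400613 on the plus strand.
PTK7: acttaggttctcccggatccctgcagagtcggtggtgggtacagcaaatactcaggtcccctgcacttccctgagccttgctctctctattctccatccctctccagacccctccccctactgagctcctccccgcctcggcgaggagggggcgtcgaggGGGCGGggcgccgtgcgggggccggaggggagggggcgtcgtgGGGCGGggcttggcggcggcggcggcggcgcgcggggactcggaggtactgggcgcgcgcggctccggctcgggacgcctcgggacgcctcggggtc
VANGL2: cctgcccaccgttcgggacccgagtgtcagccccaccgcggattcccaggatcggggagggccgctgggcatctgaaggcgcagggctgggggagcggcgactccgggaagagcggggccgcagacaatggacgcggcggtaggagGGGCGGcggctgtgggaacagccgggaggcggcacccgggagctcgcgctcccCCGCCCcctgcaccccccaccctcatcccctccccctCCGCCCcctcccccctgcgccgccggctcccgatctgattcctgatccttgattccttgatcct
Both windows were GC-rich, at 73.3% G or C in each, with 34 CpG dinucleotides in the PTK7 window and 29 in the VANGL2 window. The PTK7 window held 2 GC boxes and the VANGL2 window 3, a motif found in 45.0% of the 35116 promoters of the same length. Neither window held TGACG (the core letters of a cyclic AMP response element, in 24.6% of all promoters), the TCF/LEF letters ATCAAAG (2.62%), the AP-1 letters TGANTCA (7.71%) or TATAAA (11.5%), each read on both strands. RefSeq windows were matched for 8 of the 10 genes, in 12 windows. TGACG occurred in 1 of the windows of VANGL1, 1 of those of DAAM1 and, at 2 positions, in that of PRICKLE1. These are matches of letters, and factor binding was not measured.

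**Figure D1:**
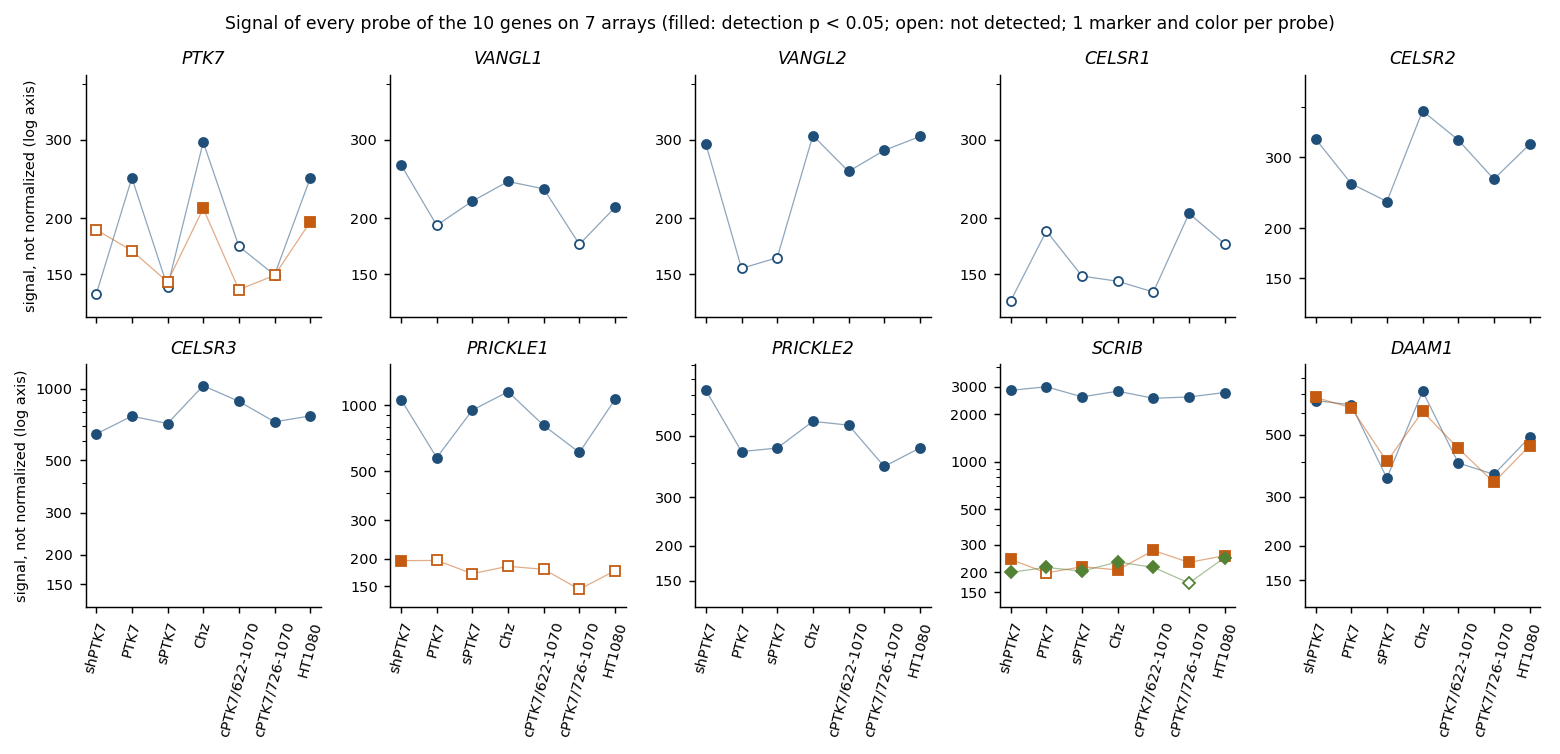
Signal (log axis, arbitrary units, not normalized) of each of the 15 probes on the 7 arrays, with 1 panel per gene, 1 marker and color per probe, filled markers where the probe was detected and open markers where it was not. VANGL2 is open in PTK7 and sPTK7 cells only, and the brighter PTK7 probe is filled in PTK7, Chz and HT1080 cells only; levels of different probes cannot be compared.

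PTK7 was read by a pair of probes. The brighter one (ILMN_2353202, annotated to the transcript NM_152880) gave signals of 135.2 in shPTK7, 246.5 in PTK7, 140.5 in sPTK7, 296.5 in Chz, 173.1 in cPTK7/622-1070 and 149.4 in cPTK7/726-1070 cells, against 246.1 in HT1080 cells. PTK7 and Chz cells stood beside the HT1080 array, and the other 4 lines stood below the signal at which a probe was detected, which was 191.9 to 203.1 over the arrays. In shPTK7 cells, where PTK7 is the silenced gene, its detection p was 0.877 and its level lay at least 1.94-fold under that of HT1080 cells. The bound was at least 1.76-fold lower in sPTK7, at least 1.83-fold lower in cPTK7/622-1070 and at least 1.74-fold lower in cPTK7/726-1070 cells. These bounds are set by the distance of the HT1080 signal from the detection limit, and they do not rank the 4 lines.

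PTK7 cells, transfected with the full-length pseudokinase, read 1.08-fold of HT1080 cells, and Chz cells read 1.31-fold. The position of the probes relative to the transfected constructs is not given in the sources used here, so the level of construct transcripts is not known from these probes. By immunoblot, the paper reports silencing of PTK7 protein in shPTK7 cells. It also reports FLAG-tagged construct protein at comparable levels in PTK7, sPTK7 and Chz cells. Endogenous PTK7 at the cell surface was, in the paper, relatively low in sPTK7 and cPTK7/726-1070 cells. These are protein levels, and their relation to the probe signals was not tested. The dimmer PTK7 probe (ILMN_1662166, annotated to NM_152882) gave 188.6 in shPTK7, 169.3 in PTK7, 144.1 in sPTK7, 210.5 in Chz, 138.5 in cPTK7/622-1070 and 149.0 in cPTK7/726-1070 cells, against 196.4 in HT1080 cells. It was detected only in Chz (detection p of 0.0169) and HT1080 cells (0.0429). The probes therefore differed for PTK7 cells, where only the brighter one was detected, and for shPTK7 cells, where the dimmer one lay near the limit with a detection p of 0.0714.

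The Van Gogh proteins are multi-pass membrane proteins that recruit Prickle. VANGL2 (ILMN_1715647) gave signals of 293.5 in shPTK7, 154.5 in PTK7, 163.3 in sPTK7, 306.6 in Chz, 254.8 in cPTK7/622-1070 and 284.0 in cPTK7/726-1070 cells, against 305.1 in HT1080 cells. PTK7 and sPTK7 cells were low, with detection p values of 0.517 and 0.278, and the other 4 lines lay near or somewhat below HT1080 cells. VANGL2 was at least 2.68-fold lower in PTK7 cells and at least 2.74-fold lower in sPTK7 cells. It was 1.57-fold lower in cPTK7/622-1070 cells, 1.15-fold lower in shPTK7 cells, 1.12-fold lower in Chz cells and 1.04-fold higher in cPTK7/726-1070 cells. Both calls ended without background correction (log2 folds of -0.60 in PTK7 and -0.61 in sPTK7 cells), in the normalized table of the authors and at a detection p under 0.01, with the direction kept.

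VANGL1 (ILMN_1685929) gave 263.6 in shPTK7, 193.0 in PTK7, 218.6 in sPTK7, 241.9 in Chz, 232.9 in cPTK7/622-1070 and 174.9 in cPTK7/726-1070 cells, against 211.7 in HT1080 cells. shPTK7 cells held the brightest signal, 1.61-fold of HT1080 cells. VANGL1 was not detected in PTK7 cells (detection p of 0.0701) or in cPTK7/726-1070 cells (0.129). In PTK7 cells neither Van Gogh gene was detected, but VANGL1 lay just under the detection limit there. It was also close to that limit in HT1080 cells (detection p of 0.0169). No VANGL1 fold was called.

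The Flamingo cadherins bridge neighboring cells through their ectodomains. CELSR2 (ILMN_1711208) was detected on all 7 arrays and gave 333.4 in shPTK7, 258.1 in PTK7, 233.0 in sPTK7, 391.4 in Chz, 331.4 in cPTK7/622-1070 and 264.9 in cPTK7/726-1070 cells, against 323.1 in HT1080 cells. PTK7 and sPTK7 cells held its lowest signals, as they did for VANGL2, at 1.44-fold and 1.77-fold lower than HT1080 cells, and neither was called. Over the 7 arrays the normalized log2 levels of CELSR2 and VANGL2 had a Pearson r of 0.78, a description of arrays that lay on 1 chip.

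CELSR3 (ILMN_1691290) was detected on all arrays, with signals of 644.9 in shPTK7, 766.4 in PTK7, 713.5 in sPTK7, 1030.0 in Chz, 884.6 in cPTK7/622-1070 and 725.3 in cPTK7/726-1070 cells, against 768.0 in HT1080 cells. Its folds lay between 1.34-fold lower in shPTK7 and 1.21-fold higher in Chz cells. CELSR1 (ILMN_1694482) was detected only in cPTK7/726-1070 cells, at 205.1 with a detection p of 0.0286, against 175.4 in HT1080 cells, and its fold there was at least 1.34-fold higher. Its other signals ran from 130.7 to 187.4.

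Prickle proteins bind Van Gogh proteins at the membrane and oppose Dishevelled. PRICKLE1 (ILMN_1741356) gave 1063.6 in shPTK7, 578.0 in PTK7, 951.8 in sPTK7, 1155.3 in Chz, 810.4 in cPTK7/622-1070 and 610.2 in cPTK7/726-1070 cells, against 1065.7 in HT1080 cells. It was low in PTK7 cells, 1.90-fold below HT1080 cells, and then in cPTK7/726-1070 cells (1.63-fold lower) and cPTK7/622-1070 cells (1.43-fold lower), with the other 3 lines within 1.06-fold of HT1080 cells. A second PRICKLE1 probe (ILMN_3181473) was detected only in shPTK7 cells, at 195.9, and gives no check of this order.

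PRICKLE2 (ILMN_1683148) gave 730.0 in shPTK7, 438.2 in PTK7, 451.2 in sPTK7, 563.3 in Chz, 546.1 in cPTK7/622-1070 and 387.1 in cPTK7/726-1070 cells, against 451.6 in HT1080 cells. It stood highest in shPTK7 cells, at 1.78-fold of HT1080 cells, and the other 5 lines lay within 1.23-fold. In shPTK7 cells VANGL1 and PRICKLE2 both lay above the 95th percentile of all genes, a log2 fold of 0.63 (VANGL1 0.69 and PRICKLE2 0.83). Neither was called, and without background correction they read 0.27 and 0.62. Members lay outside the 5th to 95th percentiles in other lines too, such as CELSR2 in sPTK7 cells (-0.83) and PRICKLE1 in PTK7 cells (-0.93).

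SCRIB, a cytoplasmic scaffold that interacts genetically with Vangl2 in the mouse, was read by 3 probes. The brightest (ILMN_1726516) varied little, from 2530.4 in cPTK7/622-1070 to 2993.1 in PTK7 cells, against 2751.5 in HT1080 cells, and its log2 folds lay between -0.16 and 0.23. The dimmer probes differed from it, but their signals lay near the detection limit (171.2 to 248.0 for ILMN_2324029 and 198.3 to 275.1 for ILMN_1695181). ILMN_2324029 read below HT1080 cells in all 6 lines, by log2 folds of -0.30 to -0.88 in the 5 lines where it was detected and by at least 1.76-fold in cPTK7/726-1070 cells, where it was not, and ILMN_1695181 read -0.89 in PTK7 cells (at least 1.85-fold lower), where the brightest probe read 0.23. Which transcripts each of the 3 probes reads is known here only by accession, NM_015356 for ILMN_1726516 and ILMN_2324029 and NM_182706 for ILMN_1695181. The folds of SCRIB thus differed by probe, with those of the dimmer probes the less certain.

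DAAM1, the formin that joins Dishevelled to RhoA, was read by 2 probes, both detected on all 7 arrays. The brighter (ILMN_2046470) gave 663.9 in shPTK7, 641.2 in PTK7, 349.1 in sPTK7, 718.3 in Chz, 396.4 in cPTK7/622-1070 and 360.5 in cPTK7/726-1070 cells, against 489.7 in HT1080 cells. The lines fell on either side of HT1080 cells, with shPTK7, PTK7 and Chz cells above it (1.39-fold, 1.59-fold and 1.42-fold) and the lines of sPTK7, cPTK7/622-1070 and the shorter cPTK7/726-1070 below it (1.52-fold, 1.45-fold and 1.32-fold). The second probe (ILMN_1787251) gave 681.5, 625.5, 401.1, 606.6, 447.5 and 337.4 in the same order of lines (shPTK7, PTK7, sPTK7, Chz, cPTK7/622-1070, cPTK7/726-1070), against 456.9 in HT1080 cells, and its log2 fold had the same sign in all 6 lines. The folds of the probes differed by 0.02 to 0.46 on the log2 scale. No DAAM1 fold over HT1080 cells was called.

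With 1 array per line, levels in neighboring positions of these orders cannot be separated from array error. The differences between probes of DAAM1 and of SCRIB are disagreements of probes on the same RNA and do not measure the error between arrays or cultures.

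**Figure D2:**
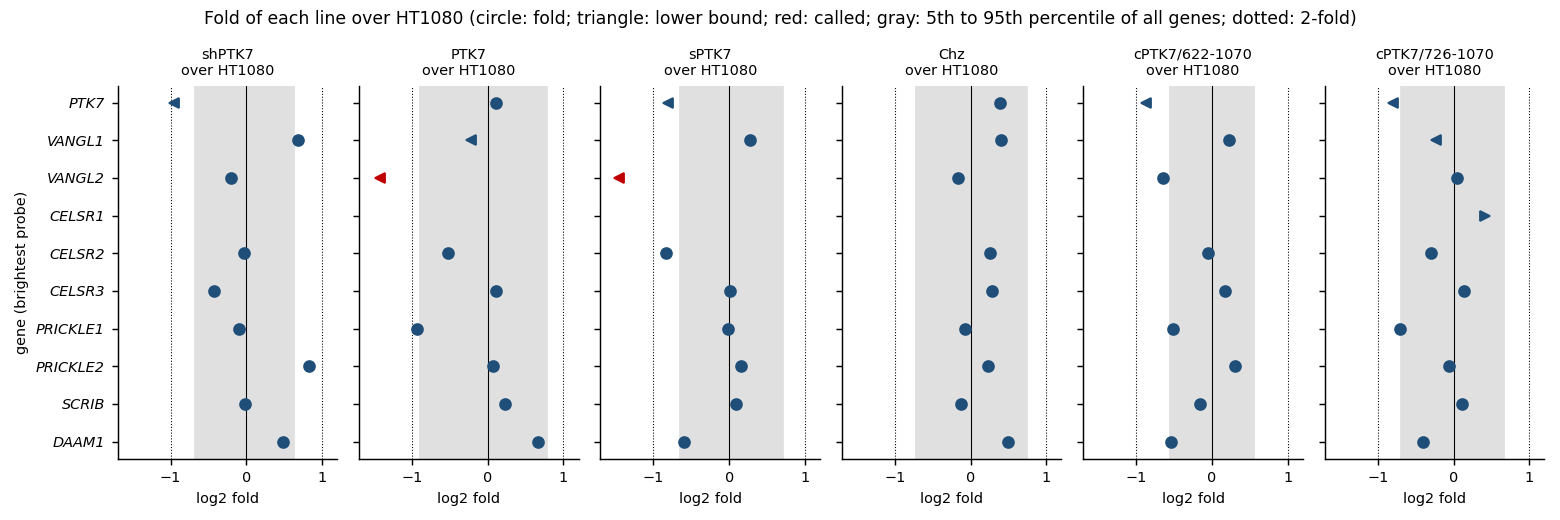
Log2 fold of each line over HT1080 cells (horizontal axis, 1 panel per line) for the brightest probe of each gene, with circles for folds, triangles for lower bounds, red for called genes, a gray band from the 5th to the 95th percentile of all genes and dotted lines at 2-fold. VANGL2 in PTK7 and sPTK7 cells is the only member called beyond 2-fold, and CELSR1 has a value only in cPTK7/726-1070 cells.

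Counted over the members, 0 of 9 with a fold were called in shPTK7 cells, 1 of 9 in PTK7 cells, 1 of 9 in sPTK7 cells, 0 of 9 in Chz cells, 0 of 9 in cPTK7/622-1070 cells and 0 of 10 in cPTK7/726-1070 cells. Of all genes with a fold, 3.08% were called in shPTK7, 6.77% in PTK7, 4.16% in sPTK7, 4.23% in Chz, 1.63% in cPTK7/622-1070 and 3.46% in cPTK7/726-1070 cells. Read against these shares, 1 call among 9 members is no result about the group. The median log2 fold of the members was -0.03 in shPTK7, 0.07 in PTK7, -0.01 in sPTK7, 0.26 in Chz, -0.16 in cPTK7/622-1070 and -0.15 in cPTK7/726-1070 cells, and that of all genes lay between -0.01 and 0.01. The 6 comparisons share the HT1080 array, so an error of that array enters all of them.

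The lines were also set against each other without HT1080 cells. Between PTK7 and shPTK7 cells, with 8.12% of all genes called, 2 members were called. PTK7 was at least 2.09-fold higher in PTK7 than in shPTK7 cells (246.5 in PTK7 against 135.2 in shPTK7 cells), and VANGL2 was at least 2.34-fold lower (154.5 in PTK7 against 293.5 in shPTK7 cells). Both calls ended without background correction (log2 folds of 0.40 for PTK7 and -0.50 for VANGL2), in the authors' table (0.42 and -0.52) and at a detection p under 0.01 (0.71 and -0.75). Of this pair, PTK7 cells had the brighter PTK7 probe detected and VANGL2 undetected, and shPTK7 cells the reverse. Chz and HT1080 cells had both probes detected, and sPTK7 cells had neither probe detected. A relation between the levels of these genes was not tested.

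Chz and PTK7 cells carry the full-length construct with and without the Chuzhoi mutation. They are separate lines with 1 array each, so the mutation cannot be told apart from other differences between the lines. With 10.4% of all genes called between them, VANGL2 was the 1 member called, at least 2.39-fold higher in Chz than in PTK7 cells (306.6 in Chz against 154.5 in PTK7 cells). The call ended without background correction (log2 fold of 0.51), in the authors' table (0.54) and at a detection p under 0.01 (0.78). PRICKLE1 was 1.82-fold higher in Chz cells and CELSR2 1.72-fold higher, neither called. Of the 9 members with a fold, 7 read higher in Chz cells, VANGL1 and VANGL2 as lower bounds. The median log2 fold of the members was 0.29, against -0.01 for all genes, which is no result about the group. PTK7 itself read 1.22-fold higher.

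Between sPTK7 and PTK7 cells, with 7.93% of all genes called, DAAM1 was the 1 member called, 2.41-fold lower in sPTK7 cells (349.1 in sPTK7 against 641.2 in PTK7 cells). Its second probe read 1.87-fold lower (401.1 in sPTK7 against 625.5 in PTK7 cells), short of the call, and the call of the brighter probe ended without background correction (log2 fold of -0.90) and in the authors' table (-0.89). PTK7 was at least 1.89-fold lower in sPTK7 cells and PRICKLE1 1.89-fold higher, and VANGL2 has no fold because both lines were undetected. Between cPTK7/622-1070 cells and cPTK7/726-1070 cells, with 2.24% of all genes called, 0 of 9 members were called, and the widest fold was VANGL2, 1.63-fold lower in cPTK7/622-1070 cells (254.8 against 284.0 in cPTK7/726-1070 cells).

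The wider pathway was described with 9 lists of ligands, receptors, regulators, effectors and PTK7 partners, which held 103 genes, 99 of them with a probe. In PTK7 cells 12 of 76 genes with a fold were called, 3 higher and 9 lower, or 15.8% against the 6.77% of all genes. In the other lines the share lay nearer the background, with 2 of 77 in shPTK7 (2.60%), 4 of 76 in sPTK7 (5.26%), 4 of 77 in Chz (5.19%), 1 of 77 in cPTK7/622-1070 (1.30%) and 3 of 74 in cPTK7/726-1070 cells (4.05%). Without background correction the counts fell in all 6 lines, to 2 of 76 in PTK7 cells (2.63%, against 2.47% of all genes) and to 1 or 0 in the other lines, so the share in PTK7 cells then lay at the background. Of the 26 calls over the 6 lines, 4 remained without correction and the same 4 in the authors' table (APH1B in shPTK7, MYL12A and SEMA3A in PTK7 and WNT5A in Chz cells), and all 26 kept their direction in both.

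**Figure D3:**
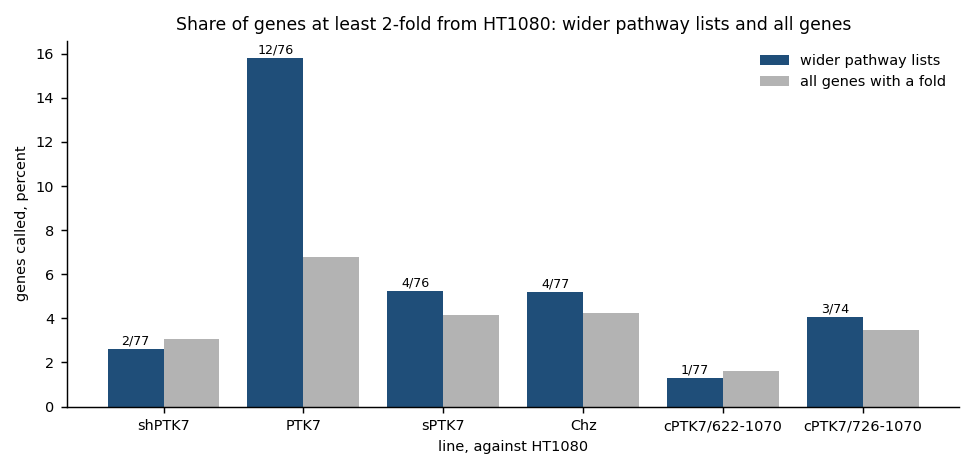
Percent of genes called at least 2-fold from HT1080 cells in each line (bars from 0), for the wider pathway lists (dark, with the number called over the number with a fold) and for all genes with a fold (gray). PTK7 cells show 15.8% of list genes beside 6.77% of all genes, and the other 5 lines show shares nearer to each other.

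Among the ligands, WNT5A, which acts in non-canonical Wnt signaling and convergent extension, gave 223.5 in shPTK7, 222.7 in PTK7, 270.3 in sPTK7, 906.7 in Chz, 209.3 in cPTK7/622-1070 and 159.6 in cPTK7/726-1070 cells, against 342.6 in HT1080 cells. It was called in 5 of the 6 lines with background correction, and of these calls only that in Chz cells remained without it and in the authors' table (log2 fold of 1.2 in each). The other 4 kept their direction in both, at log2 folds of -0.59 to -0.80. Against the median of the 7 arrays these 4 were not called. They read -0.15 in shPTK7, 0.0 in PTK7, -0.47 in cPTK7/622-1070 and -0.51 in cPTK7/726-1070 cells. The call in Chz cells remained there (2.92). Chz cells stood above HT1080 cells, 3.23-fold higher, and the other called lines stood below, by 2.59-fold in shPTK7, 2.34-fold in PTK7, 3.23-fold in cPTK7/622-1070 and at least 3.34-fold in cPTK7/726-1070 cells.

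Of the receptors and co-receptors, FZD3, a Frizzled that acts in axon guidance and planar polarity, was not detected in PTK7 and sPTK7 cells, the same pair of lines as for VANGL2, at 175.4 and 156.5 against 289.9 in HT1080 cells. It was at least 2.42-fold lower in PTK7 cells and at least 2.47-fold lower in sPTK7 cells. FZD8 was 2.60-fold lower in PTK7 cells (252.3 against 452.9 in HT1080 cells) and 2-fold higher in Chz cells (872.3 against 452.9 in HT1080 cells). The glypican GPC4, a heparan sulfate proteoglycan that binds Wnt proteins, was 2.16-fold higher in PTK7 and 2.44-fold higher in cPTK7/726-1070 cells. MCAM, an adhesion molecule reported to bind WNT5A, was 2.06-fold higher in sPTK7 cells.

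Of the cytoplasmic regulators, ANKRD6, the vertebrate relative of fly Diego, was 2.54-fold higher in PTK7 (277.0 against 197.5 in HT1080 cells) and 2.94-fold higher in Chz cells (337.5). Its HT1080 signal lay near the detection limit (detection p of 0.0377). Both calls ended at a detection p under 0.01 (log2 folds of 0.77 in PTK7 and 0.98 in Chz cells) and without background correction (0.55 and 0.66). CTHRC1, a secreted protein that favors non-canonical Wnt signaling, was 2.21-fold lower in PTK7 cells (654.3 against 1404.3 in HT1080 cells). IFT88, of intraflagellar transport, was 2.15-fold lower in PTK7 cells. In the polarity scaffolds DLG5 was 2.11-fold higher and LIN7C at least 2.26-fold lower in PTK7 cells, and PARD6A, of the Par complex, was 2.47-fold lower in sPTK7 cells.

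Of 15 listed effectors of the cytoskeleton and JNK signaling, 2 were called, both in PTK7 cells, where 6.77% of all genes were called. Both are myosin regulatory light chains, and MYL12B, also a listed light chain, was not called. MYL12A was 2.61-fold lower (7855.5 against 20069.6 in HT1080 cells) and MYL9 2.14-fold lower (342.0 against 613.2 in HT1080 cells). The MYL9 call ended without background correction (log2 fold of -0.76) and in the authors' table (-0.75), and the MYL12A call remained in both. The median log2 fold of this list in PTK7 cells was -0.29. Of the Fat, Dachsous and Four-jointed genes, only 3 had a fold in each line, and 0 were called. With 1.63% to 6.77% of all genes called per line, this is no result about that family.

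Of the enzymes that cut PTK7, MMP14, which encodes MT1-MMP, gave 271.8 in shPTK7, 310.1 in PTK7, 416.8 in sPTK7, 416.0 in Chz, 349.0 in cPTK7/622-1070 and 366.3 in cPTK7/726-1070 cells, against 339.8 in HT1080 cells, with log2 folds between -0.70 and 0.61. The sheddases ADAM10 and ADAM17 had log2 folds of -0.77 to 0.30 and -0.40 to 0.24. The γ-secretase subunits PSEN2, NCSTN, APH1A and PSENEN were not called in any line, with log2 folds from -0.67 (NCSTN in PTK7 cells) to 0.71 (PSENEN in PTK7 cells). The subunit APH1B was 5.24-fold lower in shPTK7 cells (213.7 against 504.8 in HT1080 cells) and 2.02-fold lower in sPTK7 cells (302.4). Among plexins, semaphorins and other PTK7 partners, SEMA3A, a semaphorin that guides axons, was 3.63-fold lower in PTK7 cells (236.0 against 506.9 in HT1080 cells). PLXNA4 was 2.29-fold higher in Chz cells, where the HT1080 signal it was set against lay near the detection limit (detection p of 0.0416). PLXNA3 was at least 2.83-fold lower in cPTK7/726-1070 cells. Both calls ended at a detection p under 0.01 (log2 folds of 0.59 for PLXNA4 and -0.87 for PLXNA3).

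The genes whose pattern over the 7 arrays was most like that of PTK7 were OCIAD2 (Pearson r of 0.984 on normalized log2 levels), RBPMS2 (0.977), SFRP1 (0.962), MIR30B (0.932) and TFAP2A (0.928), among 3543 genes that were detected on at least 1 array and spanned at least 2-fold. OCIAD2 gave 183.6 in shPTK7, 2318.7 in PTK7, 166.4 in sPTK7, 6174.2 in Chz, 193.4 in cPTK7/622-1070 and 166.3 in cPTK7/726-1070 cells, against 720.1 in HT1080 cells. It was detected on the same number of arrays as PTK7, 3, and was high in PTK7 and Chz cells. SFRP1, a secreted Wnt antagonist, gave 141.8 in shPTK7, 287.4 in PTK7, 155.5 in sPTK7, 523.8 in Chz, 227.4 in cPTK7/622-1070 and 160.4 in cPTK7/726-1070 cells, against 392.7 in HT1080 cells. Among the other members DAAM1 followed PTK7 most closely, with an r of 0.62.

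VANGL2 was taken as the second pattern for its range of normalized levels with the detection limit applied (2.84-fold, beside 2.55-fold for PTK7, both lower bounds that do not rank the genes). The genes most similar to it were CNTNAP3 (r of 0.957), MAGEE1 (0.951), TUB (0.934), PTGR2 (0.927) and FAM20C (0.925). MAGEE1 gave 862.9 in shPTK7, 262.9 in PTK7, 199.2 in sPTK7, 830.4 in Chz, 683.0 in cPTK7/622-1070 and 826.9 in cPTK7/726-1070 cells, against 775.9 in HT1080 cells. Its signal was low in PTK7 and sPTK7 cells, the lines without detected VANGL2. With 7 arrays and values held at the detection limit on some of them, these names describe the arrays only.

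**Figure D4:**
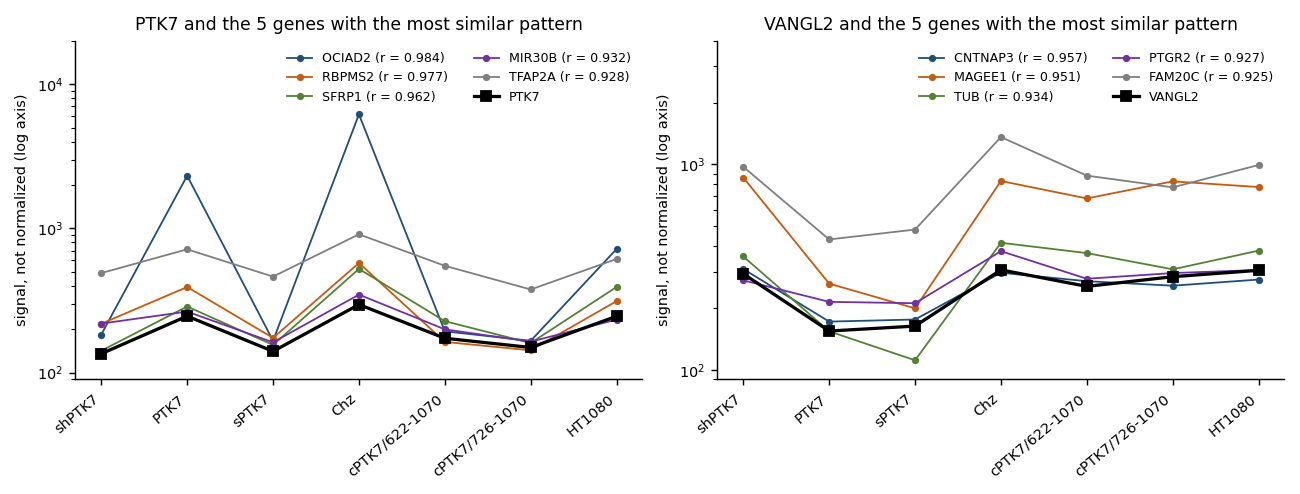
Signal (log axis, not normalized) on the 7 arrays of PTK7 (left, black) and VANGL2 (right, black) and of the 5 genes with the highest Pearson r to each. The PTK7 group peaks in Chz cells, and the VANGL2 group is low in PTK7 and sPTK7 cells; the heights of different genes cannot be compared.

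Between 19045 and 20515 of the 47230 probes were detected per array, so that 40.3% to 43.4% of probes carried a level. Of 8 mesenchymal markers 7 were detected on at least 1 array and 5 on all, with THY1 detected on none, and their summed normalized signal ran from 54860 in PTK7 cells to 84400 in Chz cells, against 80430 in HT1080 cells. Of 11 epithelial markers 4 were detected (CLDN4, EPCAM, KRT18 and KRT8), with sums of 2590 in sPTK7 to 4204 in cPTK7/726-1070 cells, against 3528 in HT1080 cells. Of leukocyte and blood markers 2 of 6 and of endothelial markers 1 of 5 were detected, none on all arrays. These sums are totals of linear signal, in which the brightest markers weigh most, and a relation of the mesenchymal sum to VANGL2 was not tested. PTK7 and sPTK7 cells, both without detected VANGL2, had sums of 54860 and 75920, and cPTK7/726-1070 cells, with VANGL2 detected, had 57270. Fewer cells of a type and less RNA per cell cannot be told apart in these arrays.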

How the data were processed

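The non-normalized table the authors deposited gave, for 47230 probes, an intensity (the mean over the beads of a probe) and a detection p value. The normalized intensities the authors deposited served as an alternative. Per the methods they were normalized with BeadArray Reader and GeneSpring GX software, and the algorithm is not given in the sources used here. The deposited columns held no fold changes. Background correction, quantile normalization and log2 transformation used neqc of limma 3.58.1 in R 4.3.3 (offset of 16, background inferred from the detection p values). Probes were joined to genes through the platform annotation, with symbols updated through Entrez IDs (30112 probes with 1 gene, 8 with several). The probe with the highest mean log2 signal represented a gene in counts. Call rule and bounds are given with the results, and no fold is given where both arrays were undetected. The methods name Welch's test, which 1 array per line does not allow. Promoter sequences are from RefSeq. Listed genes without a matched probe, such as GIPC1, FAT3 and GNB2L1, were not analysed here. All members with all probes, every list gene called in a line (at most 4 per list and line), the PTK7 cleaving enzymes and the 5 genes most like PTK7 and VANGL2 were named. The members and lists were chosen with earlier results of these data known. The number of arrays limits the precision. The pipeline was tested on simulated data. Python 3.11.15, numpy 2.4.6, pandas 2.3.3 and matplotlib 3.10.9 were used.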

Additional observations from a re-analysis of the deposited data

How the results depend on the processing

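Of 495 member folds recomputed under other settings, 476 kept their side of the 2-fold call, 17 lost it, 2 gained it and 0 called folds turned round, and 14 small folds changed sign. Most of these folds were not called in the main setting, so keeping their side was the likely outcome. The 17 losses all fell among the few called folds, so 476 of 495 is no measure of how stable the calls are. Without background correction, which leaves the background in both signals, and in the authors' normalized table, 0 members were called in PTK7 and sPTK7 cells (VANGL2 log2 folds of -0.60 and -0.61 without correction, and -0.62 and -0.64 in the table), and 0 were called in each direct comparison that had a call. At a detection p under 0.01 VANGL2 stood at -0.94 in PTK7 and -0.97 in sPTK7 cells, and the count was 0 in both, in PTK7 against shPTK7 and in Chz against PTK7 cells. With scaling to the 75th percentile, PTK7 was called in shPTK7 cells (-1.03), a count of 1, and against the median of the 7 arrays it was called in Chz cells (1.19), also 1. In the pathway lists, no correction and the authors' table each left 1 gene called in shPTK7, 2 in PTK7, 0 in sPTK7, 1 in Chz, 0 in cPTK7/622-1070 and 0 in cPTK7/726-1070 cells. Against the median of the arrays 1 was called in shPTK7, 4 in PTK7 (5.33%, against 4.95% of all genes), 3 in sPTK7, 6 in Chz, 0 in cPTK7/622-1070 and 1 in cPTK7/726-1070 cells, and at a detection p under 0.01 there were 2 in Chz cells. The direct comparisons were recomputed by choices made after seeing the data. No paired analysis was possible because each line has 1 array. The lower bounds of VANGL2, VANGL1 and PTK7 are set by the detection limit of the dimmer array.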
